A study of Homo sapiens with 9 samples.

Results

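The G1 cyclins, their kinases and the CDK inhibitors were followed as 10 genes of 60662 in a count table from the megakaryoblastic leukemia line SET2, which carries a *JAK2* mutation, with and without an intact *DYRK1A* gene. The genes were taken by symbol: the D cyclins *CCND1*, *CCND2* and *CCND3*, the kinases *CDK4* and *CDK6*, the inhibitors *CDKN1B* (p27), *CDKN1C* (p57) and *CDKN2C* (p18), and the E cyclins *CCNE1* and *CCNE2*. They were chosen for their place in the pathway, since the DYRK1A kinase phosphorylates cyclin D and p27. Earlier results of these data were known when they were chosen. Bulk RNA-seq covered untreated parental cells (WT, 3 libraries) and the *DYRK1A* KO clones named 11H1 and 14B5 (3 libraries each). All 3 groups share the *JAK2* mutation of the line. The KO clones were made by nucleofection of Cas9 with a guide, sorted as single cells, expanded, and kept because their indels were out of frame. The libraries of a clone therefore share a founder cell. The labels do not say that WT went through single-cell cloning, and no sample is labelled as a clone of an unedited cell. The knockout therefore cannot be told apart from the history of a clone. Library totals ran from 32347779 to 60272245 expected counts (median per group 47482391 in WT, 32542161 in 11H1 and 58288590 in 14B5). Levels are given in CPM, which scales the counts to a common total after TMM normalization. Differences are log2 fold changes from edgeR's quasi-likelihood test, with the standard error (SE) and a Benjamini-Hochberg adjusted p over all genes tested, and a gene was called at an adjusted p under 0.05.

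Cells leave G1 when D cyclins activate CDK4 and CDK6, which begin to phosphorylate the retinoblastoma family of pocket proteins, and E cyclins with CDK2 then complete this step and release E2F factors to switch on the genes of DNA replication. INK4 inhibitors such as p18 bind CDK4 and CDK6, whereas the CIP/KIP inhibitors p21, p27 and p57 bind complexes of cyclin and kinase, with CDK2 as the main target. DYRK1A acts on this step at the level of protein: it phosphorylates a threonine near the end of cyclin D, which marks the protein for export and degradation, and a serine near the start of p27, which stabilizes it. RNA counts read none of this, and the values here describe transcript levels only.

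The coding bases of these sites are shown because they are where the kinase meets the members of this pathway; they were read from GENCODE v29 transcripts on GRCh38, with the codon of the threonine or serine in capitals. Each stretch of 30 coding bases holds 5 codons before and 4 after the site and lies within a single exon. In *CCND1* it is codon 286 of 295 (exon 5 of 5, chr11:69651235-69651264, plus strand), in *CCND2* codon 280 of 289 (exon 5 of 5, chr12:4299962-4299991, plus strand), in *CCND3* codon 283 of 292 (exon 5 of 5, chr6:41935958-41935987, minus strand) and in *CDKN1B* codon 10 of 198 (exon 1 of 3, chr12:12717852-12717881, plus strand).
CCND1: gtggacctggcttgcACAcccaccgacgtg
CCND2: ctggaccaagccagcACCcctacagacgtg
CCND3: cccagccagaccagcACTcctacagatgtc
CDKN1B: cgagtgtctaacgggAGCcctagcctggag
The threonine codon is followed by a proline codon in all 3 D cyclins, and the serine codon of *CDKN1B* likewise. Between the stretches, *CCND1* and *CCND2* share 22 of 30 bases, *CCND2* and *CCND3* share 21, and *CCND1* and *CCND3* share 16. All 3 D cyclins carry the site, and *CCND3* gave most of the D cyclin RNA in these cells, while *CCND1* gave at most 2.87%.

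*DYRK1A* itself (chromosome 21, 37365573 to 37526358) measured 197, 196 and 219 CPM in the WT libraries, 188, 191 and 192 CPM in those of 11H1, and 191, 182 and 174 CPM in those of 14B5. Its log2 fold change was −0.13 (SE 0.0586, adjusted p = 0.126) in KO versus WT, −0.09 (adjusted p = 0.131) in 11H1 versus WT and −0.17 (adjusted p = 0.0278) in 14B5 versus WT. Counts per gene do not show a reading frame, so its level does not check which cells carry the indels.

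All 10 genes were expressed and tested in every comparison. In KO versus WT, with both clones together (n = 6 against 3), 3 were called higher (*CDKN1B*, *CDKN2C* and *CCNE2*) and 4 lower (*CCND1*, *CCND3*, *CDKN1C* and *CCNE1*). Among all 17080 genes tested 14.3% were called higher and 17.7% lower. In 11H1 versus WT 4 were called higher and 5 lower, where 31.8% and 32.8% of all genes were, and in 14B5 versus WT 4 were called higher and 4 lower, where 24.9% and 28.7% were. In the direct comparison of the clones no gene was called higher in 11H1 and 4 were called lower, against 31.6% and 32.1% of all genes. At an unadjusted p under 0.05 in edgeR 1 gene, *CCND3*, was higher in 11H1, and DESeq2 and limma-voom called it. The median log2 fold change over the 10 genes was 0.00 in KO versus WT, −0.11 in 11H1 versus WT and 0.02 in 14B5 versus WT, beside 0.02, −0.01 and −0.01 over all genes tested. The comparisons of the clones with WT share the same 3 WT libraries and are not independent of each other. The fit with both clones together counts the 6 KO libraries as separate, although those of a clone share a founder cell. In bulk RNA, fewer cells in a phase of the cycle and less RNA per cell cannot be told apart.

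**Figure D1:**
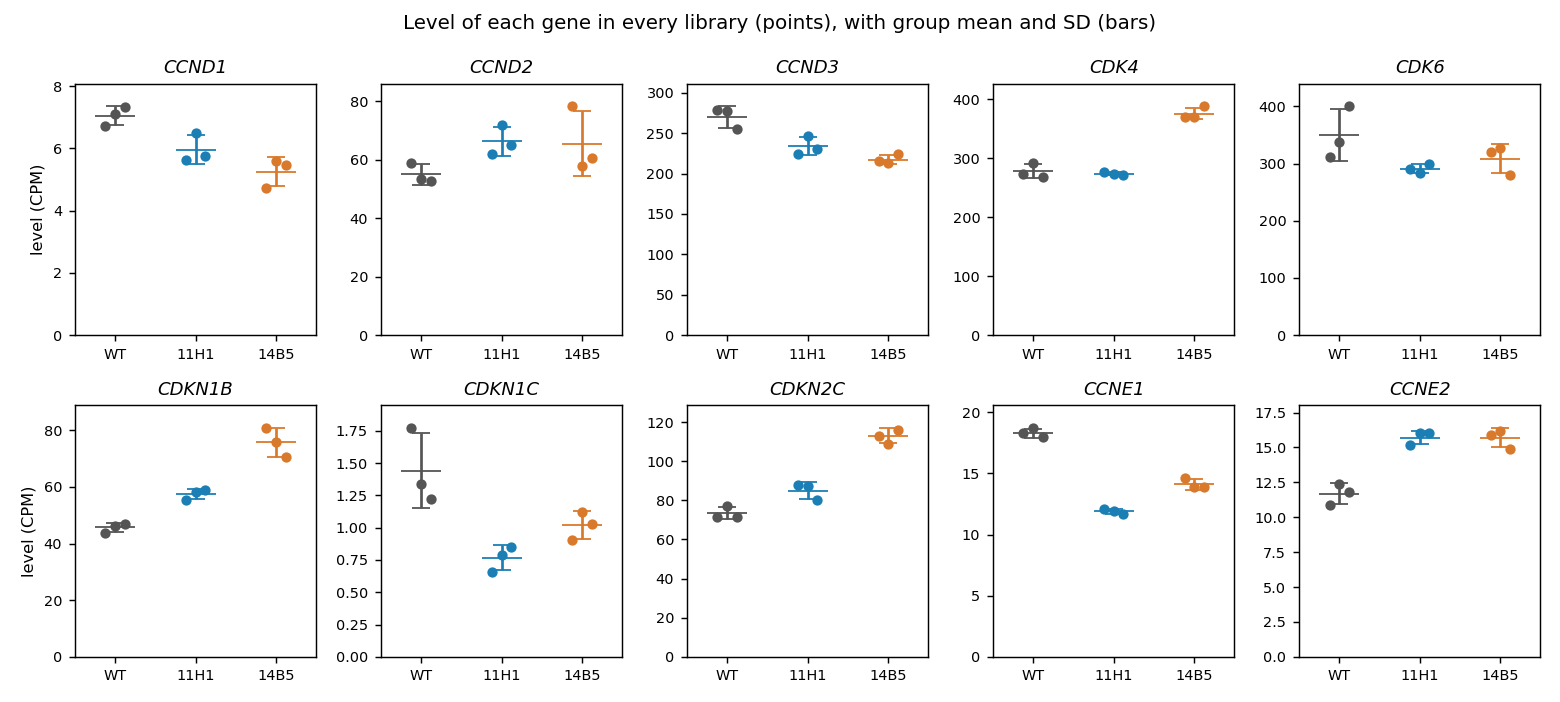
Level of each of the 10 genes in CPM (vertical axis, from 0) in the 9 libraries, by group; points are libraries, the horizontal bar is the mean of 3 and the error bar the SD. *CDKN1B* and *CDKN2C* step up from WT to 11H1 to 14B5, *CCNE1* is lower and *CCNE2* higher in every KO library, and *CDK4* stands apart in 14B5, where it lies between 370 and 388 CPM.

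For 7 of the 10 genes the 6 KO libraries did not overlap the 3 WT libraries, a property of 36.6% of all genes tested. A 2-sided exact permutation test over the 84 ways to assign libraries to groups gave p = 0.0119, the smallest it can give, for *CCND1*, *CCND3*, *CDKN1C*, *CCNE1* and *CCNE2*. The same exact test gave p = 0.0238 for *CDKN1B* and *CDKN2C*, 0.0476 for *CDK6*, 0.0595 for *CCND2* and 0.31 for *CDK4*. The 3 libraries of a clone against 3 of WT cannot go below 0.1 in such a test. The libraries of a clone share a founder cell, so the 6 KO libraries are not independent samples of the knockout. The permutation test treats each library as separate, so its p-values describe how these libraries separate and do not test the knockout itself.

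**Figure D2:**
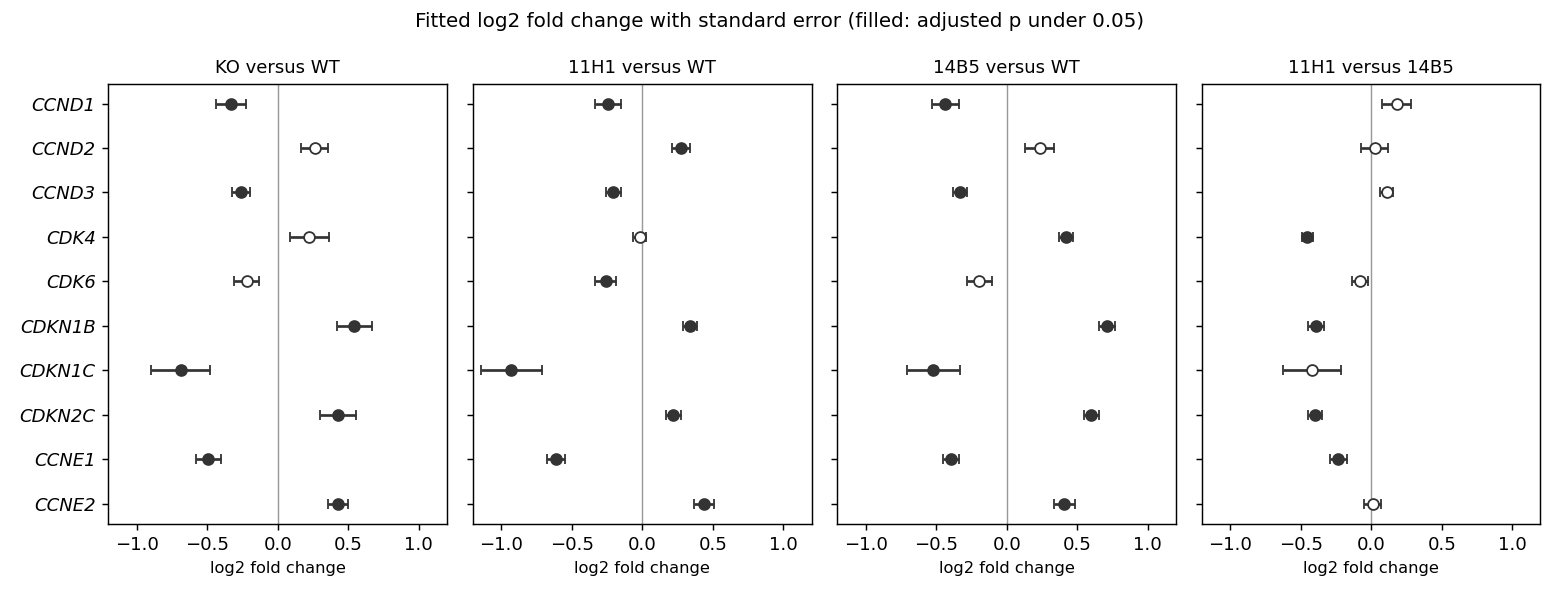
Log2 fold change of each gene with its SE (horizontal axis) in the 4 comparisons; filled points have an adjusted p under 0.05 in edgeR. *CDKN1C* shows the widest errors, and *CDK4* is called higher in 14B5 and not in 11H1.

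Among the D cyclins, *CCND3* and *CCND1* fell and *CCND2* did not. *CCND3* (chromosome 6, 41934933 to 42050357, minus strand), the D cyclin best known from lymphoid and myeloid cells, measured 279, 277 and 255 CPM in WT, 224, 246 and 231 CPM for 11H1, and 216, 213 and 224 CPM for 14B5. All 6 KO libraries lay below the lowest WT library. The log2 fold change was −0.26 (SE 0.0618, adjusted p = 0.00949) in KO versus WT, −0.20 (SE 0.0527, adjusted p = 0.00486) in 11H1 and −0.33 (SE 0.0512, adjusted p = 3.89e-04) in 14B5, a decrease of 13.2% to 20.5%. Without WT library 2 the adjusted p of KO versus WT was 0.0563.

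*CCND1* (chromosome 11, 69641087 to 69654474, plus strand), the D cyclin that many mitogens induce, was scarce: 6.73, 7.09 and 7.32 CPM in WT, 5.63, 6.49 and 5.75 CPM in 11H1 and 4.72, 5.59 and 5.45 CPM in 14B5, from 189 to 338 counts a library. Each KO library was below each WT library, with 11H1 library 2 the closest to WT. The log2 fold change was −0.33 (SE 0.108, adjusted p = 0.0400) in KO versus WT, −0.24 (SE 0.0914, adjusted p = 0.0365) in 11H1 and −0.44 (SE 0.0950, adjusted p = 0.00326) in 14B5. The call in KO versus WT was lost in 10 of 16 alternatives, among them the removal of any library other than 11H1 library 2 (adjusted p 0.0535 to 0.128), and in 11H1 versus WT in 5 of 13 (adjusted p 0.0649 to 0.131), whereas in 14B5 it held in all 13. Its exons share 497 bases with *LTO1* on the opposite strand, a gene at 11.1 to 15.1 CPM in WT, 21.1 to 22.2 CPM in 11H1 and 15.1 to 16.0 CPM in 14B5.

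*CCND2* (chromosome 12, 4273772 to 4305350, plus strand), a D cyclin that cytokine signaling through STAT5 is known to induce, measured 59.0, 53.3 and 52.7 CPM in WT, 62.0, 71.7 and 65.2 CPM for 11H1, and 78.2, 57.8 and 60.6 CPM for 14B5. The libraries of 11H1 lay above WT, while 14B5 overlapped WT through its library 2 and was spread by its library 1. *CCND2* rose in 11H1 (log2 fold change 0.27, SE 0.0630, adjusted p = 0.00234) and was not called in 14B5 (0.23, SE 0.104, adjusted p = 0.0844) or in KO versus WT (0.26, SE 0.0987, adjusted p = 0.0699). Without 14B5 library 1 the value in 14B5 was 0.10, and without 14B5 library 2 it was 0.34 and called (adjusted p = 0.0300). In all, a call was gained in 5 of 13 alternatives for 14B5 versus WT and in 2 of 16 for KO versus WT. Between the clones themselves the log2 fold change was 0.03 (SE 0.0966, adjusted p = 0.835), so a difference between 11H1 and 14B5 was not detectable. The gene shares 989 exon bases with the same-strand gene *AC008012.1* (0.293 to 0.754 CPM), between which reads may be divided.

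Per unit of exon length, the only scale on which levels of different genes are compared here, *CCND3* made 83.2% to 84.2% of the summed D cyclin RNA in WT, 78.9% to 79.7% in 11H1 and 75.8% to 80.1% in 14B5. The share of *CCND2* was 13.2% to 14.3% in WT, 17.9% to 18.6% in 11H1 and 17.6% to 22.2% in 14B5, and that of *CCND1* 1.99% to 2.87% over all libraries. The summed level per length (counts divided by merged exon length and scaled to a common total) was 177 to 189 in WT, 163 to 177 in 11H1 and 154 to 164 in 14B5. D cyclin RNA was thus mostly *CCND3* in every library, with a larger part from *CCND2* in each KO library than in any WT library.

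Of the D cyclin kinases, *CDK4* differed between the clones. *CDK4* (chromosome 12, 57747727 to 57756013, minus strand) measured 274, 292 and 269 CPM in WT, 276, 274 and 271 CPM for 11H1, and 371, 370 and 388 CPM for 14B5. The 14B5 libraries lay above all others, and those of 11H1 fell within the range of WT. The log2 fold change was 0.42 (SE 0.0495, adjusted p = 6.07e-05) in 14B5 versus WT and −0.02 (SE 0.0472, adjusted p = 0.768) in 11H1 versus WT, and the direct comparison gave −0.45 (SE 0.0406, adjusted p = 1.85e-06) for 11H1 versus 14B5. With both clones together *CDK4* was not called (0.22, SE 0.137, adjusted p = 0.239). It shares 1369 exon bases with *TSPAN31* on the opposite strand, which was at 19.0 to 20.7 CPM in WT, 15.5 to 16.2 CPM in 11H1 and 18.4 to 18.8 CPM in 14B5.

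*CDK6* (chromosome 7, 92604921 to 92836594, minus strand), the partner kinase that dominates in many blood progenitors, measured 312, 338 and 400 CPM in WT, 290, 284 and 299 CPM for 11H1, and 320, 327 and 281 CPM for 14B5. WT spread more than either clone, with library 3 as its highest. *CDK6* fell in 11H1 (log2 fold change −0.26, SE 0.0746, adjusted p = 0.00897), whereas 14B5 overlapped WT (−0.19, SE 0.0897, adjusted p = 0.0947), as did KO as a whole (−0.22, SE 0.0864, adjusted p = 0.0772). In 11H1 versus 14B5 the log2 fold change was −0.08 (SE 0.0567, adjusted p = 0.225), not past the threshold. Without WT library 3 the values were −0.16 in 11H1 (adjusted p = 0.00856), −0.07 in 14B5 (adjusted p = 0.444) and −0.11 in KO versus WT (adjusted p = 0.351), and without WT library 1 the last 2 were −0.27 and −0.30 and called (adjusted p = 0.0267 and 0.0431). Per length, *CDK6* made 22.7% to 27.8% of *CDK4* plus *CDK6* in WT, 21.1% to 22.2% in 11H1 and 15.8% to 18.6% in 14B5, and the sum of both was 343 to 410 in WT, 360 to 373 in 11H1 and 474 to 483 in 14B5.

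The CIP/KIP inhibitors moved in opposite directions. *CDKN1B* (chromosome 12, 12715058 to 12722371, plus strand), which encodes p27, measured 43.8, 46.3 and 47.0 CPM in WT, 55.5, 58.1 and 58.9 CPM for 11H1, and 80.7, 75.8 and 70.7 CPM for 14B5. The 3 groups did not overlap: every 11H1 library was above WT, and every 14B5 library above 11H1. *CDKN1B* rose by a log2 fold change of 0.34 (SE 0.0481, adjusted p = 6.69e-05) in 11H1, 0.71 (SE 0.0589, adjusted p = 4.76e-06) in 14B5 and 0.54 (SE 0.126, adjusted p = 0.00839) in KO versus WT. The clones differed by −0.39 (SE 0.0539, adjusted p = 5.65e-05, 11H1 versus 14B5), and these 4 calls held in every alternative.

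*CDKN1C* (chromosome 11, 2883213 to 2885773, minus strand), which encodes p57 and is an imprinted gene known from quiescent stem cells, was scarce, with 26 to 87 counts in a library. It measured 1.77, 1.34 and 1.22 CPM in WT, 0.660, 0.792 and 0.852 CPM for 11H1, and 0.903, 1.12 and 1.03 CPM for 14B5. No KO library reached the lowest of WT, and WT library 1 stood above the other WT libraries. *CDKN1C* fell by a log2 fold change of −0.69 (SE 0.208, adjusted p = 0.0295) in KO versus WT, −0.93 (SE 0.216, adjusted p = 0.00247) in 11H1 and −0.52 (SE 0.190, adjusted p = 0.0413) in 14B5. The call held in all 13 alternatives for 11H1 and was lost in 8 of 13 for 14B5, among them the removal of WT library 1 or 2 or of any 14B5 library (adjusted p 0.0592 to 0.183). It was lost in 5 of 16 for KO versus WT, among them the removal of WT library 1 (−0.52, adjusted p = 0.149), WT library 2 (adjusted p = 0.0728) or 11H1 library 2 (adjusted p = 0.0523). Per length, *CDKN1C* made 2.85% to 4.38% of *CDKN1B* plus *CDKN1C* in WT, 1.33% to 1.61% in 11H1 and 1.25% to 1.65% in 14B5.

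The INK4 inhibitor *CDKN2C* (chromosome 1, 50960745 to 50974633, plus strand), which encodes p18, had the same shape as *CDKN1B*. It measured 71.5, 76.9 and 71.7 CPM in WT, 87.7, 87.1 and 80.1 CPM for 11H1, and 113, 109 and 116 CPM for 14B5, again with no overlap between the 3 groups. *CDKN2C* rose by a log2 fold change of 0.22 (SE 0.0532, adjusted p = 0.00331) in 11H1, 0.60 (SE 0.0499, adjusted p = 4.93e-06) in 14B5 and 0.43 (SE 0.126, adjusted p = 0.0262) in KO versus WT, and the clones differed by −0.40 (SE 0.0494, adjusted p = 2.40e-05, 11H1 versus 14B5). The pooled call was lost in 4 of 16 alternatives, among them the removal of WT library 1, 2 or 3 (adjusted p 0.0623 to 0.0942), while in each clone it held in all 13. Measured by the root mean square difference of centred log2 CPM over the 9 libraries, *CDKN1B* and *CDKN2C* differed by 0.10. Of 13580 genes averaging 1 CPM or more, 0.773% were closer to *CDKN1B* than *CDKN2C* was, and 1.08% closer to *CDKN2C* than *CDKN1B* was. *CDK4* also differed from *CDKN2C* by 0.10, with 1.35% of genes closer to *CDKN2C*. For *CCND1* and *CCND3* the difference was 0.09, with 0.434% of genes closer to *CCND1* and 1.41% closer to *CCND3*. The groups share libraries and clones, so these are descriptions over 3 levels. No member's group means spanned over 1 on the log2 scale, so no further genes of like pattern are named.

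The E cyclins moved apart from each other. *CCNE1* (chromosome 19, 29811898 to 29824308, plus strand), the more abundant E cyclin of WT, measured 18.3, 18.7 and 18.0 CPM in WT, 12.1, 11.9 and 11.7 CPM for 11H1, and 14.6, 13.9 and 13.9 CPM for 14B5. The 3 groups were separate, with 11H1 lowest and 14B5 between 11H1 and WT. *CCNE1* fell by a log2 fold change of −0.61 (SE 0.0634, adjusted p = 4.81e-06) in 11H1, −0.40 (SE 0.0590, adjusted p = 3.04e-04) in 14B5 and −0.49 (SE 0.0881, adjusted p = 0.00208) in KO versus WT, and 11H1 was below 14B5 (−0.23, SE 0.0604, adjusted p = 0.00493).

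*CCNE2* (chromosome 8, minus strand), the other E cyclin and, like *CCNE1*, known as an E2F target, measured 10.9, 12.4 and 11.8 CPM in WT, 15.2, 16.0 and 16.0 CPM for 11H1, and 15.9, 16.2 and 14.9 CPM for 14B5. Every KO library lay above every WT library, and the clones overlapped. *CCNE2* rose by a log2 fold change of 0.44 (SE 0.0715, adjusted p = 2.01e-04) in 11H1, 0.41 (SE 0.0723, adjusted p = 9.02e-04) in 14B5 and 0.43 (SE 0.0707, adjusted p = 0.00132) in KO versus WT, and the difference between the clones was 0.01 (SE 0.0598, adjusted p = 0.888). The calls of *CCNE1* and *CCNE2* against WT held in every alternative. *CCNE2* shares 1629 exon bases with *INTS8* on the opposite strand, a gene at 58.5 to 61.4 CPM in WT, 47.4 to 51.8 CPM in 11H1 and 61.8 to 63.6 CPM in 14B5. The sources differ on the library kit and whether counting used the strand is not given, so reads of the 2 genes in the shared bases may not have been told apart. Against WT, *INTS8* was lower in the 11H1 libraries and higher in those of 14B5, and its part in the change of *CCNE2* was not tested.

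As a share of E cyclin RNA per length, *CCNE2* made 25.6%, 27.7% and 27.6% in WT, 42.1%, 43.7% and 44.2% in 11H1 and 38.7%, 40.4% and 38.4% in 14B5. The share in each KO library was above that in each WT library, and 11H1 was above 14B5. The sum of both E cyclins was 29.6 to 34.0 in WT, 27 to 27.7 in 11H1 and 28.8 to 31.2 in 14B5, ranges that overlap between WT and 14B5.

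**Figure D3:**
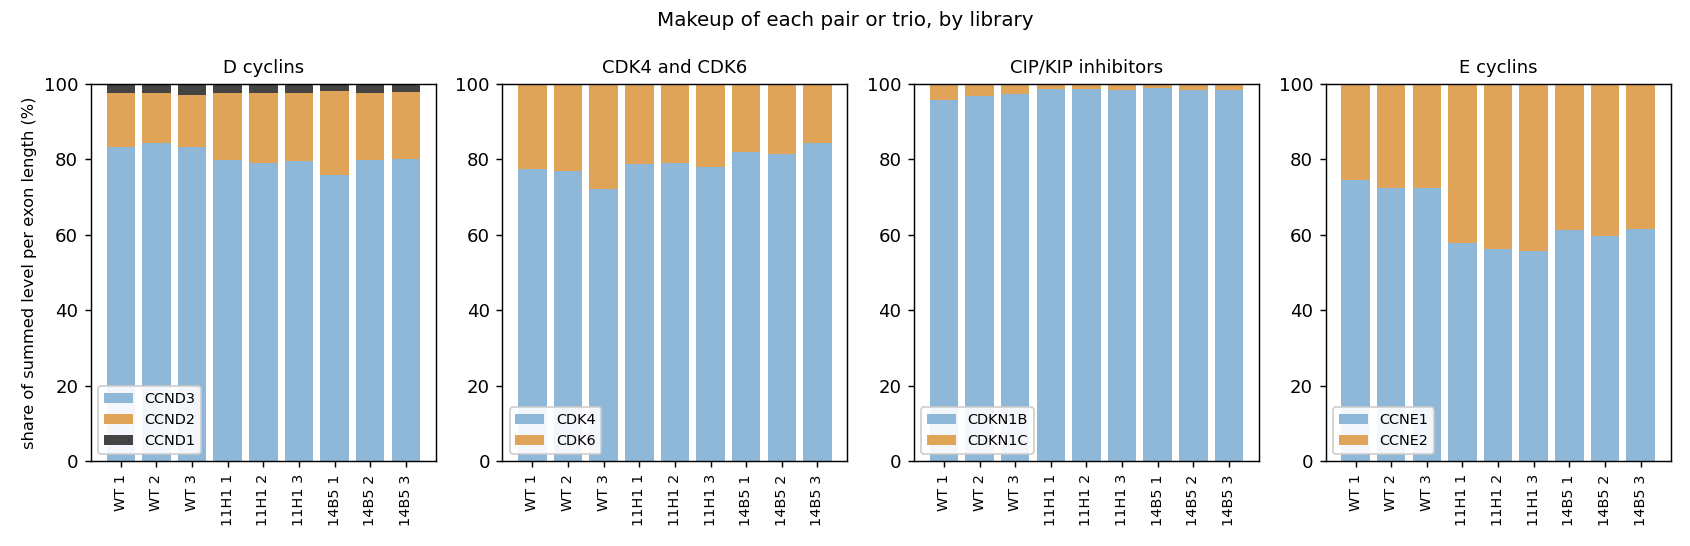
Makeup of the D cyclins, of *CDK4* and *CDK6*, of *CDKN1B* and *CDKN1C*, and of the E cyclins in each library, as a percentage of the summed level per exon length (vertical axis, 0 to 100). The *CCNE2* part grows from at most 27.7% in WT to at least 38.4% in KO, and *CDK6* is smallest in 14B5.

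Ordered by level per length in WT, *CDK4* (mean 290) led, followed by *CCND3* (153), *CDK6* (94.6), *CDKN2C* (73.0), *CDKN1B* (53.7), *CCND2* (25.3), *CCNE1* (23.7), *CCNE2* (8.78), *CCND1* (4.82) and *CDKN1C* (1.90). The ranges of neighbours in this order were apart, narrowly so for *CDK6* and *CDKN2C* (lowest 78.0 against highest 77.5) and for *CCND2* and *CCNE1* (24.9 against 24.7). In 11H1 *CDKN2C* and *CDK6* overlapped, and in 14B5 *CDKN1B* and *CDK6* did. *CDKN2C* passed *CDK6* in the mean of both clones (84.8 against 78.5 in 11H1 and 113 against 83.8 in 14B5), and the sum of *CDKN1B* and *CDKN2C* went from 114 to 134 in WT to 148 to 155 in 11H1 and 196 to 209 in 14B5.

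Changes of the 10 genes were also set beside those of the genes that start within 5 Mb of them, 37 to 180 neighbours each. The median log2 fold change of the neighbours lay between −0.22 and 0.14 in each clone versus WT. For *CDKN1B* it was −0.09 in 11H1 and −0.17 in 14B5, beside 0.34 and 0.71 for the gene. For *CCNE2* it was −0.22 and −0.03, beside 0.44 and 0.41, and for *CCNE1* −0.07 and 0.14, beside −0.61 and −0.40. For *CDK4* in 14B5 it was −0.01, beside 0.42. For *CCND3* the median went the same way as the gene, −0.07 and −0.1 beside −0.20 and −0.33. In 11H1 versus 14B5 the median around *CCNE1* was −0.15, beside −0.23 for the gene. Whether a shift of a whole stretch of chromosome has a part in these changes was not tested.

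Of the other CDK inhibitors, *CDKN1A*, which encodes p21, changed by more than any of the 10 genes. It measured 6.86, 7.49 and 7.0 CPM in WT, 30.7, 31.2 and 29 CPM for 11H1, and 21.3, 23.5 and 22.6 CPM for 14B5. *CDKN1A* rose by a log2 fold change of 2.10 (SE 0.0676, adjusted p = 4.16e-10) in 11H1 and 1.64 (SE 0.0697, adjusted p = 4.24e-08) in 14B5. The INK4 gene *CDKN2D* was tested and not called (0.08 in 11H1, adjusted p = 0.461; 0.02 in 14B5, adjusted p = 0.883). *CDKN2A* had at most 2 counts in a library and *CDKN2B* had 0 in all 9, so neither was tested. A count of 0 allows up to 0.0914 CPM in the smallest library.

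Among 7 genes of CDK2, its partners and the kinases that activate CDKs, 2 rose and 5 were not called in KO versus WT, 2 rose and 2 fell in 11H1 versus WT, and 3 rose and 4 were not called in 14B5 versus WT. Over all genes the shares called higher and lower were 14.3% and 17.7%, 31.8% and 32.8%, and 24.9% and 28.7% in these comparisons, so the counts of this list in 11H1 were near those of all genes. *CDK2*, the kinase of the E cyclins, rose by 0.41 (adjusted p = 7.09e-06) in 11H1 and 0.47 (adjusted p = 1.47e-05) in 14B5, and *CDC25A*, the phosphatase that activates it, by 0.29 (adjusted p = 9.10e-05) and 0.31 (adjusted p = 1.86e-04). The genes that fell in 11H1 were *CCNH* (−0.47) and *MNAT1* (−0.15), subunits of the CDK-activating kinase. The list's median log2 fold change was 0.05 in 11H1 and 0.03 in 14B5, near that of all genes.

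Among 7 pocket proteins and E2F partners, 4 rose and 3 were not called in KO versus WT, 4 rose and 1 fell in 11H1, and 5 rose and 2 were not called in 14B5. Their median log2 fold change was 0.32 in 11H1 and 0.26 in 14B5, and the shares of all genes called are those given for the list of *CDK2*. *RBL1*, the pocket protein p107, rose by 0.57 (adjusted p = 4.41e-06) in 11H1 and 0.63 (adjusted p = 1.63e-05) in 14B5. The activators *E2F2* and *E2F3* rose by 0.74 (adjusted p = 1.39e-07) and 0.32 (adjusted p = 1.09e-04) in 11H1, and by 0.26 (adjusted p = 0.00256) and 0.23 (adjusted p = 0.00504) in 14B5. *RBL2*, the pocket protein p130, was the gene that fell in 11H1 (−0.24, adjusted p = 0.00384).

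Among 17 E2F target genes of S phase entry, 12 rose and 1 fell in KO versus WT, likewise in 11H1 versus WT, and 16 rose and 1 fell in 14B5 versus WT. The gene that fell was *MCM6* (−0.55 in 11H1 and −0.29 in 14B5). Over all genes 14.3% were called higher and 17.7% lower in KO versus WT. Their median log2 fold change was 0.23 in 11H1 and 0.38 in 14B5, beside −0.01 over all genes in each, of which 31.8% and 24.9% were called higher. *GINS2*, a subunit of the replicative helicase, rose by 0.36 (adjusted p = 1.62e-04) in 11H1 and 0.71 (adjusted p = 3.74e-06) in 14B5, and *TK1*, thymidine kinase, by 0.26 (adjusted p = 0.00164) and 0.68 (adjusted p = 5.40e-06). In 11H1 versus 14B5, 14 of the 17 were lower in 11H1 and 1 was higher, where 32.1% and 31.6% of all genes were. *CDKN1B*, *CDKN2C*, *CDK4* and *CCNE1* were also lower in 11H1 than in 14B5, though *CCNE1* was below WT in both clones.

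Among 14 genes for the turnover of G1 cyclins and p27, 5 rose and 1 fell in KO versus WT, 6 rose and 4 fell in 11H1, and 9 rose and 1 fell in 14B5. Over all genes 14.3% and 17.7%, 31.8% and 32.8%, and 24.9% and 28.7% were called higher and lower in these comparisons. The list's median log2 fold change was 0.00 in 11H1 and 0.18 in 14B5. *FBXW7*, the ubiquitin ligase receptor of cyclin E, rose by 0.63 (adjusted p = 2.90e-07) in 11H1 and 0.35 (adjusted p = 1.20e-04) in 14B5, and *FBXO31*, a receptor reported for cyclin D1, by 0.47 (adjusted p = 4.70e-05) and 0.48 (adjusted p = 1.14e-04). *SKP1*, the adaptor that these receptors share, fell by a log2 fold change of −0.53 (adjusted p = 3.45e-06) in 11H1 and −0.33 (adjusted p = 4.01e-04) in 14B5. *CKS1B*, a cofactor for p27 degradation, rose by 0.24 (adjusted p = 0.00313) and 0.58 (adjusted p = 4.69e-06). *SKP2*, the receptor of p27, went opposite ways, lower in 11H1 (−0.13, adjusted p = 0.0253), higher in 14B5 (0.20, adjusted p = 0.00645), and lower in 11H1 than in 14B5 when these were compared directly (−0.35, adjusted p = 3.43e-05).

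**Figure D4:**
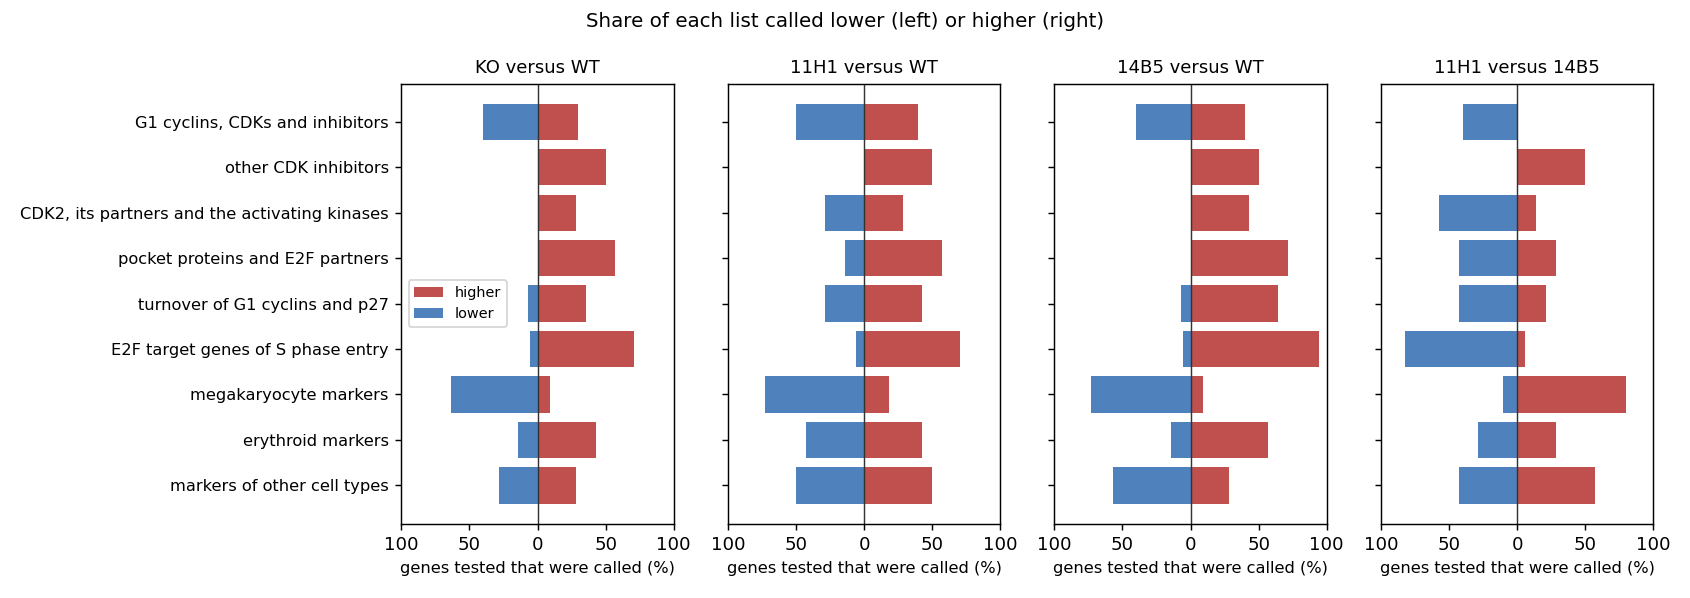
Percentage of the tested genes of each list (vertical axis) called lower (left, blue) or higher (right, red) at an adjusted p under 0.05 in edgeR, in the 4 comparisons. The 10 G1 genes split in both directions against WT, whereas 12 or 16 of the 17 E2F targets were called higher in a clone.

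SET2 expressed its line's markers: *GATA1* stood at 266 to 279 CPM and *ITGA2B* at 911 to 927 CPM in WT. *ITGA2B* fell in 11H1 (−0.49) and 14B5 (−0.62) on the log2 scale. *GATA1* fell in 11H1 (−0.18) and was not called in 14B5 (0.03). The platelet chemokine gene *PF4* reached only 0.559 CPM in WT and had 0 counts in the 6 KO libraries. Of 12 megakaryocyte markers 11 were tested in KO versus WT, where 1 rose and 7 fell, beside 14.3% and 17.7% of all genes. In 11H1 versus WT 2 rose and 8 fell, and in 14B5 versus WT 1 rose and 8 fell. Of all genes 31.8% and 32.8% were called higher and lower in 11H1, and 24.9% and 28.7% in 14B5. The summed level of the 12 markers was 2000 to 2040 CPM in WT, 1680 to 1750 CPM in 11H1 and 1560 to 1570 CPM in 14B5. *GP9* and *ITGB3*, platelet surface genes, were among the markers that fell (−2.39 and −1.42 in 11H1, −4.80 and −3.26 in 14B5). *TAL1* was the marker that rose in KO versus WT (0.46 in 11H1 and 0.34 in 14B5). *RUNX1* rose in 11H1 (0.33) and was not called in 14B5 (0.04). Of 7 erythroid markers 3 rose and 1 fell in KO versus WT, 3 rose and 3 fell in 11H1, and 4 rose and 1 fell in 14B5. Their sums were 690 to 752 CPM in WT, 792 to 846 CPM in 11H1 and 797 to 835 CPM in 14B5. *EPOR*, the erythropoietin receptor gene, rose by 1.05 in 11H1 and 0.93 in 14B5 on the log2 scale. Of 13 markers of other cell types 7 were tested in KO versus WT, where 2 rose and 2 fell. In 11H1 3 rose and 3 fell, and in 14B5 2 rose and 4 fell. The sums over all 13 were 30.7 to 32.5 CPM in WT, 44.7 to 47.0 CPM in 11H1 and 47.2 to 49.1 CPM in 14B5. *CDH1*, an epithelial adhesion gene, was at 5.13 to 6.56 CPM in WT and 21.4 to 34.6 CPM in KO, and the other 12 summed to 24.1 to 26.9 CPM in WT, 21.0 to 23.3 CPM in 11H1 and 13.5 to 15.5 CPM in 14B5. *MPO* and *CD79A* fell in both clones. With *CDH1*, *ELANE* was called higher in KO versus WT, at 0.636 to 0.993 CPM in 14B5 and at most 0.0914 CPM in 11H1 and WT. *CD3D* and *COL1A1* rose in 11H1 (1.86 and 1.41) and fell in 14B5 (−1.28 and −1.17). *MS4A1* was at 0 in 8 of the 9 libraries. The share of counts from mitochondrial genes was 3.54% to 6.03% in WT, 7.23% to 7.39% in 11H1 and 3.30% to 3.92% in 14B5. The part of these marker and mitochondrial shifts in the changes of the G1 genes was not tested.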

How the data were processed

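Bulk RNA-seq of 9 SET2 libraries was analysed from the gene table that the authors deposited, which holds RSEM expected counts without normalization for depth or length (60754 rows, 92 of them spike-in controls at 0). The submitters' processing notes name STAR 2.7.9a, Picard, RSEM and GRCh38, and the annotation release is not given in the sources used here. The paper describes a stranded mRNA kit and the labels a different kit. Expected counts were rounded and tested with edgeR 4.0.16 in R 4.3.3 (TMM, filterByExpr, quasi-likelihood F test, Benjamini-Hochberg over all genes, threshold 0.05). All 6 deposited KO libraries entered the fits, since the paper counts 5 and does not name them. The permutation test used log2(CPM + 0.5). Levels per length divide counts by merged exons of GENCODE v29, matched by identifier for 58587 of 60662 genes (96.6%), and figures were drawn with matplotlib. The alternatives were DESeq2 1.42.0 size factors and Wald test, limma 3.58.1 (voom), no filter, at least 10 counts in every library, the replicate number as a block, 3 groups in 1 fit, and each library left out. The fits were tested on simulated data with known changes. The planted changes were larger than the main estimates for the 10 genes, and no clones were simulated. That test therefore does not cover changes of the size reported here or libraries that share a founder cell. No library copied another: the chi-square per gene between replicates was 3.83 to 32.9. The labels do not say that replicates were separate cultures, so p-values measure the spread between these libraries, which may be technical. A count of 0 allows up to 3 counts, which covers counting error only. The 10 genes are all reported. Listed genes were named if they are CDKN1A, CDKN2 family members, *CDK2*, *SKP2* or *CKS1B*, or are among the 3 largest changes of a list called the same way in each clone. *CCNH*, *MNAT1*, *RBL2*, *MCM6*, *GATA1*, *ITGA2B*, *TAL1*, *RUNX1*, *ELANE*, *CD3D*, *COL1A1* and *MS4A1* were added after their values were seen. Some genes that this rule covers are not reported here. The members and lists were chosen with earlier results of these data known.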

Additional observations from a re-analysis of the deposited data

Results flagged for a closer look

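The effect of the knockout clones differed between 11H1 and 14B5 for 4 of the 10 genes, tested by comparing the clones directly in edgeR, where 31.6% of all genes were called higher in 11H1 and 32.1% lower, so that 4 of 10 is a smaller share than among all genes. The log2 fold change of 11H1 versus 14B5 was −0.45 for *CDK4* (274 against 376 CPM in the mean), −0.39 for *CDKN1B* (57.5 against 75.7 CPM), −0.40 for *CDKN2C* (85.0 against 113 CPM) and −0.23 for *CCNE1* (11.9 against 14.1 CPM). For *CDKN1B* and *CDKN2C* the clones were both above WT and differed in size, for *CCNE1* both were below WT, and for *CDK4* only 14B5 was called against WT.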

How the results depend on the processing

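The number of calls among the 10 genes stayed within 1.5 times in each comparison under the other fits, except that the replicate number as a block left 4 instead of 7 in KO versus WT. The numbers do not pair the libraries (correlations of deviations −0.234 to 0.099), and the block left 9, 8 and 4 calls in 11H1 versus WT, 14B5 versus WT and 11H1 versus 14B5. With a library left out the count ran from 3 (without WT library 2) to 7 in KO versus WT, from 8 to 9 in 11H1 versus WT, from 7 to 8 in 14B5 versus WT and from 4 to 6 in 11H1 versus 14B5. Over all genes 3 groups in 1 fit called 10245 in KO versus WT, against 5471, and all 10 of the genes here. Of 280 values under other fits, 258 kept direction and side of the threshold, 9 lost and 12 gained a call, and 1 reversed, *CCNE2* in 11H1 versus 14B5 without a filter on low counts (−0.013). Of 270 values with a library left out, 231 were kept, 24 lost and 8 gained a call, and 7 that were not called reversed: *CDK4* in 11H1 versus WT (range −0.047 to 0.011, above 0 without WT library 2), *CCND2* in 11H1 versus 14B5 (−0.065 to 0.161, below 0 without 11H1 library 2, 14B5 library 2 or 14B5 library 3) and *CCNE2* in 11H1 versus 14B5 (−0.028 to 0.035, below 0 without 11H1 library 2 or 3 or 14B5 library 3). The causes were not tested. Depth limits *CDKN1C* and *CCND1* most, at 26 to 87 and 189 to 338 counts a library.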
